A study of Mus musculus with 8 samples.

Results

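The loci described here are those of 10 genes that act in blood stem and progenitor cells: Tal1, Lyl1, Lmo2, Gata2, Mecom, Prdm16, Hhex, Hlf, Sox4 and Bmi1. A peak of open chromatin was taken as belonging to a locus when its summit, the base with the highest signal, lay inside the gene in the mm10 mouse build or within 50 kb of it. Peaks that overlapped by at least 1 bp across libraries were merged into regions, and 58 of the 32730 regions of the series lay in the 10 loci. The series measured chromatin accessibility by ATAC-seq, in which a transposase cuts and tags open DNA, in 8 mouse bone marrow leukaemia libraries.

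The cells were GFP-positive cells sorted from leukaemic mice. They carried MLL-AF9, a fusion oncogene that gives rise to acute myeloid leukaemia, and TetO-Klf4, a Klf4 construct that doxycycline switches on. Both were present in all 4 groups, which were sampled at 0h, 6h, 12h and 24h with 2 libraries each. No library lacked TetO-Klf4, so an effect of Klf4 and an effect of doxycycline cannot be told apart. Whether doxycycline was given before the 0h sample is not stated, nor whether the libraries of a time came from separate mice, and the label for the strain reads C57BL/7. The question was how accessibility at these genes differed with time after Klf4 induction.

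Blood stem cells depend on a set of transcription factors that bind each other's enhancers. Tal1 and Lyl1 are related basic helix-loop-helix proteins. Lmo2 is a LIM-domain protein that binds no DNA itself and bridges Tal1 or Lyl1 to GATA factors such as Gata2. Mecom, which encodes EVI1, and Prdm16 are related zinc-finger regulators of stem cell maintenance, and high EVI1 marks a group of MLL-rearranged leukaemias. Hhex is a homeobox repressor, Hlf a basic leucine zipper factor of stem cells, and Sox4 an HMG-box factor of progenitors. Bmi1 is a Polycomb subunit needed for self-renewal, the making of new stem cells by division.

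The DNA just before the gene starts is shown first, because the starts differed in how many libraries called a peak there. A start was counted as covered when a peak overlapped the window from 250 bases before the annotated start to 49 after it. The sequences are the 250 bases before the start, from RefSeq on GRCm38.p6, read 5′ to 3′ on the gene's strand. Hhex (chr19:37434591-37434840, plus strand) and Lyl1 (chr8:84701207-84701456, plus strand) had a peak over the start in all 8 libraries. Sox4 (chr13:28953700-28953949, minus strand) had one in 7, Hlf (chr11:90390918-90391167, minus strand) in 5 and the upstream start of Gata2 (chr6:88193641-88193890, plus strand) in 4. Prdm16 (chr4:154636874-154637123, minus strand) had none in any library. Capitals mark matches on either strand to the GC box GGGCGG, the CACCC box written as CCACCC, the GATA motif AGATAA, the ETS motif CGGAAG, the RUNX motif TGTGGT or the E-box CAGNTG, and overlapping matches run together.
Hhex: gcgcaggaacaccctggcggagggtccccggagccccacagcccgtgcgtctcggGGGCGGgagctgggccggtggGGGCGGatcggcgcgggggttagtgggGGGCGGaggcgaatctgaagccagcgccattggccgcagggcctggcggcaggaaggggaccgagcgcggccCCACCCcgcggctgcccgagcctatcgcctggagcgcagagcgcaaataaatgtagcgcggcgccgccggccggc
Lyl1: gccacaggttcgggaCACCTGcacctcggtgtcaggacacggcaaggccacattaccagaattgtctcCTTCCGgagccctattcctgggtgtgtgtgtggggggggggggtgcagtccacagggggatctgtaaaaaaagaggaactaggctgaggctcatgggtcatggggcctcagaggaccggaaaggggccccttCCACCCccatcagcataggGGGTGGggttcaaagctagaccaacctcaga
Sox4: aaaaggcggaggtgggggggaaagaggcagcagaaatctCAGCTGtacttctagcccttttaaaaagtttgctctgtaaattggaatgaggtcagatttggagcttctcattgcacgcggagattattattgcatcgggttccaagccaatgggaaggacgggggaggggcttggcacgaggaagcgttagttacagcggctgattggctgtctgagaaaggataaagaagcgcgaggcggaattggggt
Hlf: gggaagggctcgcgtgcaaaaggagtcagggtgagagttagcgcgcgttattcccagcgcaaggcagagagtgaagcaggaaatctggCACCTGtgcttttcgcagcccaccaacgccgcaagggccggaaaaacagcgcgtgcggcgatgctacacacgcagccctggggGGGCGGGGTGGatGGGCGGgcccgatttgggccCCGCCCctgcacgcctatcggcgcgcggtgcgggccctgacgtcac
Gata2: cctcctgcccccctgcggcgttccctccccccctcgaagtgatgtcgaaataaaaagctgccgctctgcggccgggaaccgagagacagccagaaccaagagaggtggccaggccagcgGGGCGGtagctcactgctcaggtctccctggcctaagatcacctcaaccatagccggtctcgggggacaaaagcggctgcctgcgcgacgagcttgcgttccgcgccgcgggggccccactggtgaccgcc
Prdm16: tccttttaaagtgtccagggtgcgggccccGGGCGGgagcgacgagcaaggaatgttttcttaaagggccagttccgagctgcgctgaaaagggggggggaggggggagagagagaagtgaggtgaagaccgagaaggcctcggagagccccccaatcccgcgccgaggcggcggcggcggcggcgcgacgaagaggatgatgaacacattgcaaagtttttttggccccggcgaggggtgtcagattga

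The table of starts held 12 start windows for 9 of the 10 genes. The GC box, a motif of KLF and SP factors, was found in 8 of the 12 windows, against 32.7% of all 32817 start windows searched over the same length. The windows with most and fewest libraries did not part by it: the Hhex sequence held 3 matches and the Lyl1 sequence 0, although both were called in all 8 libraries, and the Prdm16 sequence held 1. The CACCC box was found in 4 of 12 windows and in 28.1% of all windows, and Hhex, Lyl1, Hlf and Bmi1 were the 4. The E-box, the motif of Tal1 and Lyl1 with their partners, was found in 4 of 12 and in 44.8% of all. The ETS motif was found in 2 of 12 and 13.6%, the GATA motif in 1 of 12 and 9.99%, and the RUNX motif in 0 of 12 and 14%. GC content of the 12 windows ran from 48.8% to 76%, with a median of 62.6%, against a median of 52.4% over all windows. The set of all windows is wider in kind than the 12: on the chromosomes used, 21263 start windows belonged to protein-coding genes, as the 10 members are. What part that has in the motif and GC differences was not tested. The matches are counts of letters and do not show that a factor was bound.

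The peak lists, called per library by the authors with MACS2, held between 14826 and 21903 peaks. Total read numbers were not used here, and the depth behind a peak is its pile-up, the number of tags stacked at the summit. The lowest pile-up of any peak was 4 in the second 0h library and 5 in each of the other lists, so a site under about that height cannot appear as a peak. The second 0h library had the lowest background, 1.5 tags per kb against 2.23 to 2.67 in the other 7, and a missing peak says least there. This background is an estimate, the lowest local background recovered for any peak of a list divided by the width of its narrowest peak. Of 13 myeloid and leukaemia marker genes, 10 to 13 per library had a peak within 10 kb or inside. Of 8 erythroid and megakaryocyte genes 3 or 4 had one, and Gata1, Hba-a1 and Pf4 were among those with no peak in any library. The mast cell list had a peak at 0 to 1 of 4 genes, the B lineage list at 1 to 3 of 5 and the T lineage list at 1 to 4 of 5. The stroma and endothelium list had a peak at 0 and 1 of 7 genes in the 24h libraries and at 4 and 2 in the 0h libraries, with Kdr, Tek and Emcn at 0 in all 8. What part these genes have in the results below was not tested.

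The 10 loci held 36 and 18 peaks in the 0h libraries, 28 and 29 in the 6h pair, 35 and 30 in the 12h pair, and 26 and 21 in the 24h pair, for replicate 1 and replicate 2. As a share of the list these were 0.165% and 0.115% in the 0h pair, 0.162% and 0.16% in the 6h pair, 0.16% and 0.152% in the 12h pair, and 0.172% and 0.142% in the 24h pair. The 6h and 12h shares and the second 24h share lay between the 0h shares. The first 24h share lay above both 0h shares, and the ranges of 24h and 0h overlapped. Few of the regions lay at the genes themselves: 18 had their strongest summit in one of the 10 genes and 40 beyond it, 7 lay over a start of a member gene, and for 18 the nearest gene end belonged to another gene. The fold enrichment of a peak, the authors' ratio of pile-up plus 1 to local background plus 1, ran from 2.93 to 11.7 over the members' peaks. Fold values and pile-ups both depend on depth, so they are comparable within a list and not directly across libraries. The median pile-up of a list was 10 tags in the second 0h library and 14 to 16 in the others. Pile-ups below are given by library as description, without scaling for depth.

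**Figure D1:**
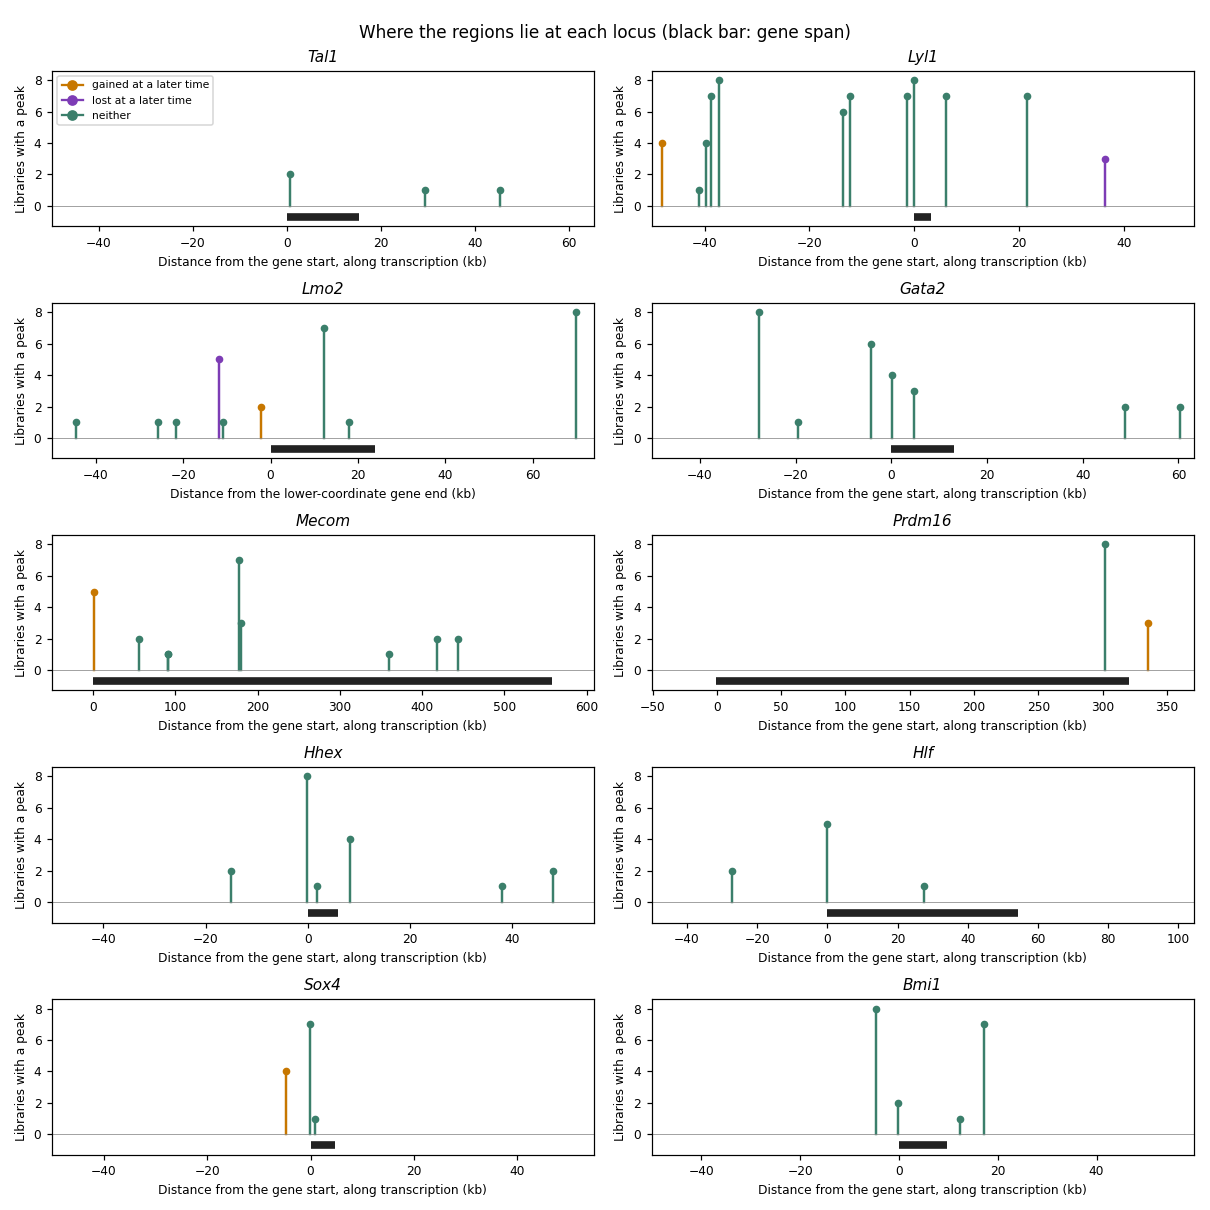
Position of the 58 regions at each locus, as distance in kb from the gene start along transcription (for Lmo2, from its lower-coordinate end), with the number of libraries of 8 that called a peak as the height of each line and the gene span as a black bar. Lyl1 carries 12 regions and Prdm16 2, and the 5 gained and 2 lost regions are coloured.

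A smaller share of the regions of the 10 loci than of all regions was called in all 8 libraries. A peak in all 8 libraries was found for 7 of the 58 regions, or 12.1%, against 28% of all regions, and a peak in 1 library only for 17, or 29.3%, against 27.9%. For 7 libraries the order was reversed, with 9 regions, or 15.5%, against 7.11%. For 2 libraries it was 11 regions, or 19%, against 11.6%. Replicates gave the same answer at all 4 times, both with a peak or both without, for 9 regions, or 15.5%, against 32.3% of all regions. A peak at every time in 4 to 7 libraries was found for 12 regions, or 20.7%, against 15.1%. The peaks were also low: in the regions called in all 8 libraries the median pile-up of the members' peaks was 17 tags, against 23 over all such regions. For regions called in 1 library it was 7 tags in both.

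The lower share called in all 8 libraries was seen both among regions over annotated starts and among the other regions. Among regions over an annotated start of a protein-coding gene, 3 of 8 at these loci (37.5%) were called in all 8 libraries, against 67.9% in the series. Among the other regions it was 4 of 50 (8%), against 14.8%. These are not all far from genes, since a region called in all 8 libraries lay 27 bp from an end of Fbxo3. No start window was available for Lmo2. Counted by start, 2 of the 12 start windows (16.7%) had a peak in all 8 libraries, against 31.1% of all start windows of protein-coding genes, and 5 (41.7%) had a peak in no library, against 52.9%. The 5 were both annotated starts of Tal1, both of Mecom and the start of Prdm16.

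**Figure D2:**
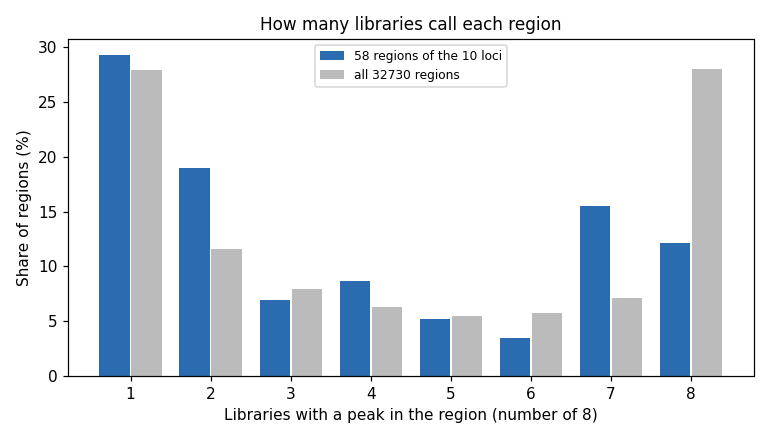
Share of regions, in percent, by the number of libraries of 8 that called a peak, for the 58 regions of the 10 loci (blue) and all 32730 regions (grey). Regions called in all 8 libraries make up 12.1% of the 58 and 28% of all.

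Changes against 0h were few. Gained means a peak in both libraries of a later time and no peak in the 0h pair, and lost means the opposite. At 6h 2 of the 58 regions (3.45%) were gained, against 1.85% of all regions, and 1 (1.72%) was lost, against 2.34%. At 12h 4 (6.9%) were gained, against 4.03%, and 0 were lost, against 1.45%. At 24h 1 (1.72%) was gained, against 1.12%, and 2 (3.45%) were lost, against 4.43%. A single region is 1.72% of the 58, and each share lay within 2 such steps of that of all regions. With 2 libraries against 2 the smallest two-sided exact permutation p is 0.333, so no test was made. In such bulk samples fewer cells with an open site and less opening per cell cannot be told apart.

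By gene, a gained region lay at Lmo2 and Sox4 at 6h, at Lyl1, Mecom, Prdm16 and Sox4 at 12h, and at Mecom at 24h. Those are 2, 4 and 1 of the 10 genes, while over all 21887 protein-coding genes 6.11%, 12.8% and 4.07% had a gained region within 50 kb at those times. A lost region lay at Lyl1 at 6h and at Lmo2 and Lyl1 at 24h, which is 1 and 2 genes, against 6.61% and 11.7% of all genes. At 12h 0 of the 10 had a lost region, against 4.15%. By number of regions in the window, Lyl1 lay at the 99.1th percentile of all genes and Lmo2 and Mecom at the 95.1th, while Prdm16 lay at the 40.2th. No member followed any of 4 ordered patterns. A peak throughout 0h, 6h and 12h, 6 libraries in all, and none at 24h was found for 0 members, against 0.709% of all regions. Absence at 0h with a peak in all 6 later libraries had 0, against 0.269%. A peak in both 0h libraries and none later had 0, against 0.611%, and absence at 0h and 6h with a peak in all 4 libraries of 12h and 24h had 0, against 0.137%.

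What could be called depended on single libraries. Leaving out 1 library loosens the rule for each comparison that uses it, so gained and lost counts there tend to rise by construction. A peak in every library but the second 0h library was found for 5 regions (8.62%), against 2.61% of all regions, and these lay at Lyl1, Mecom and Sox4. Without the second 0h library the lost regions numbered 9 at 6h, 9 at 12h and 14 at 24h, where 16.1%, 12.4% and 21.5% of all regions were lost, and regions called in every remaining library numbered 12. Without the first 0h library the gained regions numbered 9, 11 and 7, against 8.4%, 13.7% and 5.77% of all regions, and the lost ones 2, 1 and 5, against 6.94%, 5.19% and 10.2%. Without the first 6h library 7 regions were gained and 3 lost at 6h, against 7.52% and 4.7% of all regions, and without the second 5 were gained and 2 lost, against 6.42% and 5.1%. Without the first 12h library 9 were gained and 3 lost at 12h, against 10.3% and 3.82%. Without the second 12h library 7 were gained, against 13.5%, and no region was lost at 12h, against 2.71%. Without the first 24h library 1 region, at Mecom, was gained at 24h, against 4.03%. Without the second 24h library 7 were gained at 24h, against 4.28%. In these last settings the regions lost at 24h lay at Lyl1 and Lmo2, against 7.29% and 7.11% of all regions. No peak at 24h was found for 30 regions (51.7%), against 45.8% of all regions.

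**Figure D3:**
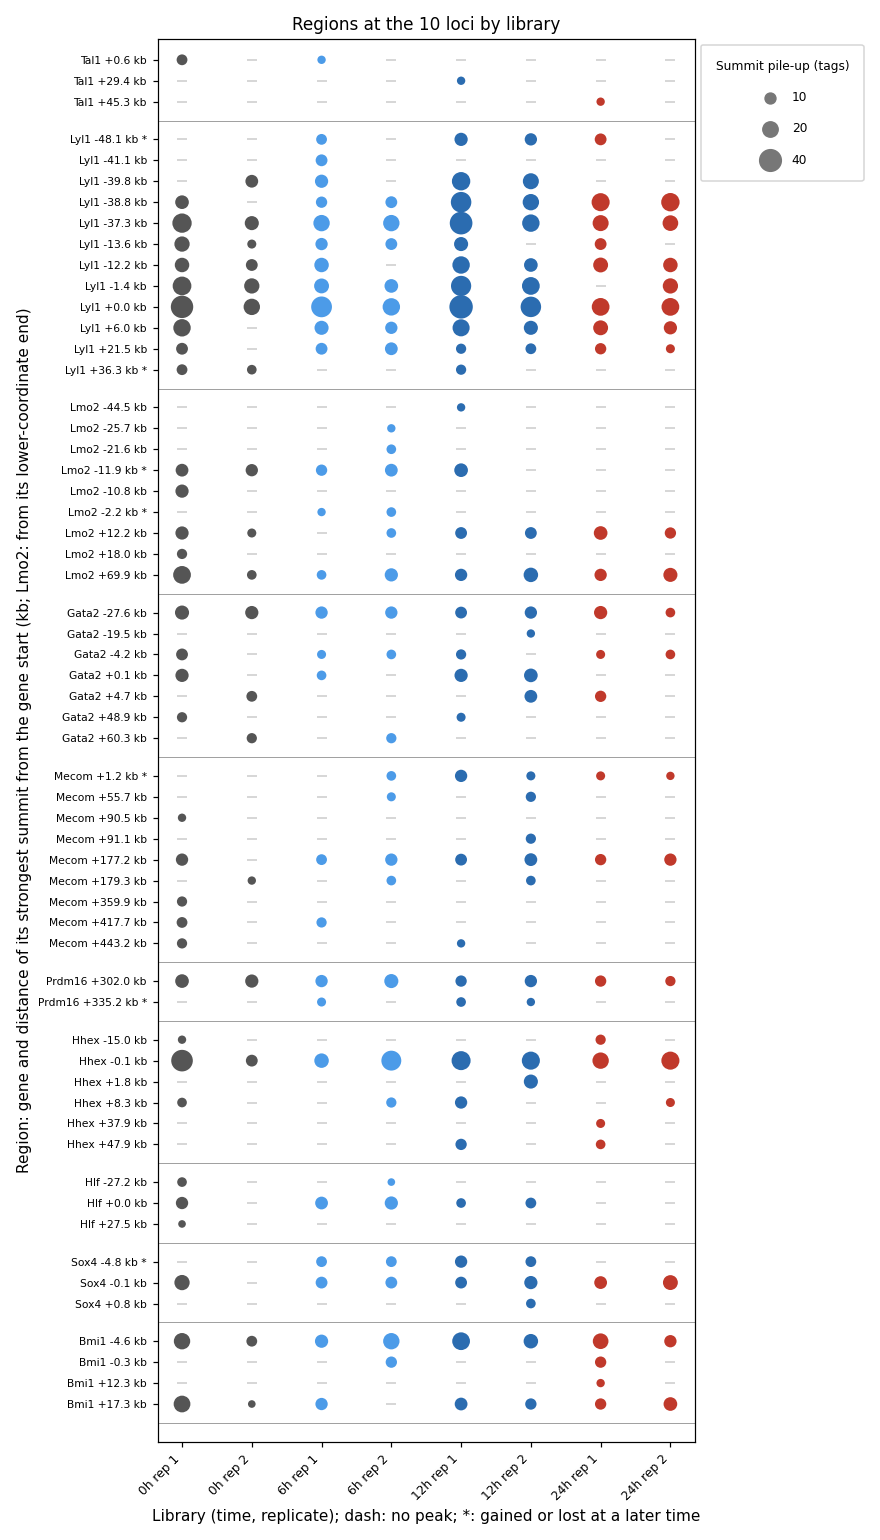
Each of the 58 regions (rows, named by gene and distance in kb of the strongest summit from the gene start) in the 8 libraries (columns, by time and replicate), with dot area for the summit pile-up in tags and a dash where no peak was called. The second 0h library has 18 of the regions and the first 0h library 34, and asterisks mark the 7 regions gained or lost at a later time.

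At Tal1 (chr4:115056426-115071755), which starts the blood programme in the embryo and later serves the erythroid and megakaryocyte lineages, almost nothing was called. The region 0.6 kb after the upstream start (chr4:115056873-115057272), inside the gene, had pile-ups of 10 tags in the first 0h library and 6 in the first 6h library and no peak elsewhere. The other regions each had 1 peak of 6 tags, at chr4:115085565-115085862 in the first 12h library, 2.87 kb from an end of Pdzk1ip1, and at chr4:115101601-115101766 in the first 24h library, 4.58 kb from an end of Cyp4x1. In all 4 libraries numbered replicate 2 the locus had no peak. The 50 kb limit matters here, since a region 56.3 kb beyond Tal1 (chr4:114999703-115000616) was called in all 8 libraries with folds of 12.8 to 15.8. Stil also lies in the Tal1 window, with Pdzk1ip1 and Cyp4x1, and which gene that region serves was not tested.

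Lyl1 (chr8:84701423-84704716), the relative of Tal1 that can stand in for it in adult stem cells, had the densest locus, with 12 regions, or 11.6 per 100 kb. That density lay at the 99.6th percentile of all genes, in a window that also holds Ier2, Nacc1, Trmt1 and Nfix. The region over its start (chr8:84701214-84701806) had pile-ups of 43 and 23 tags in the 0h pair, 37 and 26 in the 6h pair, 47 and 36 in the 12h pair, and 27 and 27 in the 24h pair, with folds between 5.56 and 8.07. The start was called at every time, the 24h values lay between the 0h values, and it held the highest pile-up of the 10 loci. A further region called in all 8 libraries lay 37.3 kb before the start, 1.3 kb from an end of Ier2, an immediate early gene.

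The region 38.8 kb before the start (chr8:84662125-84663028), inside Ier2, was chosen for mention after its values were seen. It had 16 tags in the first 0h library, 11 and 12 in the 6h pair, 36 and 23 in the 12h pair, and 28 and 29 in the 24h pair. The authors' −log10 q was 2.48 in that 0h library and 2.23 and 2.9 in the 6h pair, near the lowest value in the lists, 2. At 12h it was 13.1 and 6.22, and at 24h 10.6 and 13.3. The region is not gained by the rule, since the first 0h library had a peak at its lower edge. It was gained at 24h with lists of equal length, with −log10 q of at least 5 and under stricter overlap. It was gained at 12h under the last 2 of these, and at 6h under stricter overlap. The peak of the first 0h library (chr8:84662125-84662411) and the 6h peaks (chr8:84662475-84662644 and chr8:84662765-84662921) did not overlap each other, and are joined by peaks of other libraries.

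Of the other Lyl1 regions, the one 1.4 kb before the start was called in all libraries but the first 24h library, with pile-ups of 16 to 35 tags, 0.298 kb from an end of Trmt1. The region at chr8:84689175-84689561, inside Trmt1, had 18 and 12 tags in the 0h pair, 18 in the first 6h library, 26 and 16 in the 12h pair, and 19 and 18 in the 24h pair. The region at chr8:84687471-84687909, within 26 bp of an end of Nacc1, had 20 and 7 tags in the 0h pair, 13 and 12 in the 6h pair, 17 in the first 12h library and 12 in the first 24h library. Both were called at all 4 times with gaps in a single replicate of a time. The region at chr8:84722846-84723630, inside Nfix, had 12 tags in the first 0h library, 12 and 14 in the 6h pair, 9 and 10 in the 12h pair, and 11 and 7 in the 24h pair. It is one of the regions missed by the second 0h library and by no other.

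Lyl1 had both a gained and a lost region, each far from the gene. The gained region (chr8:84653272-84653642), 48.1 kb before the start and 7.98 kb from an end of Ier2, had 10 tags in the first 6h library, 15 and 13 in the 12h pair and 12 in the first 24h library, with no peak in either 0h library. Both 12h pile-ups were well above the lowest of those lists, and at 6h and 24h the replicates differed. The lost region (chr8:84737494-84737829), 36.3 kb after the start and inside Nfix, had 10 and 8 tags in the 0h pair and 9 in the first 12h library, with no peak in either library of 6h or 24h. It counts as lost at 6h and at 24h, and returned in 1 of 2 libraries between them.

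Lmo2 (chr2:103957903-103981878), the bridging protein of the complex and a T-cell oncogene, had 9 regions, 5 of them in a single library. Its distances run from the lower-coordinate end of the gene, since no strand was used for it. Inside the gene, the region at chr2:103969374-103970346 had pile-ups of 15 and 7 tags in the 0h pair, 8 in the second 6h library, 12 and 12 in the 12h pair, and 16 and 11 in the 24h pair. The 24h values overlapped those of 0h, and the missing library was at 6h. The region called in all 8 libraries (chr2:104027507-104028257) lay 27 bp from an end of Fbxo3, a ubiquitin ligase gene, with 27 and 8 tags in the 0h pair, 8 and 15 in the 6h pair, 13 and 18 in the 12h pair, and 13 and 17 in the 24h pair. The region at chr2:103946654-103947150 was called with 15 tags in the first 0h library only.

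The lost region of Lmo2 (chr2:103945074-103946113), 11.9 kb below the gene, had 14 and 13 tags in the 0h pair, 11 and 14 in the 6h pair, 16 in the first 12h library, and no peak in the second 12h library or at 24h. The highest pile-up came at 12h, in the library beside one without a peak. The peaks of the 0h pair did not overlap each other within it, with the first at chr2:103945074-103945705 and the second at chr2:103945944-103946081, so they are joined by peaks of other libraries. The gained region (chr2:103955641-103956129), 2.2 kb below the gene, had 6 and 8 tags in the 6h pair and no peak at 0h, 12h or 24h. Its first pile-up is 1 tag above the lowest of that list.

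Gata2 (chr6:88193891-88207032), the zinc-finger factor that keeps stem and progenitor cells in supply, had 7 regions and neither a gained nor a lost one. The region 27.6 kb before its upstream start (chr6:88165992-88166364) was called in all 8 libraries, with 17 and 15 tags in the 0h pair, 13 and 13 in the 6h pair, 12 and 13 in the 12h pair, and 15 and 8 in the 24h pair. Its folds were 9.4 and 11.1 in the 0h pair, 9.3 and 8.4 in the 6h pair, 7.28 and 7.97 in the 12h pair, and 10.3 and 5.69 in the 24h pair. One 24h library lay within the 0h pile-ups and the other had the lowest of all 8, so the times overlapped. Gata2 was the nearest gene by its end, and no annotated start lay there.

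The Gata2 starts were called less often. The upstream start region (chr6:88193604-88194239) had 15 tags in the first 0h library, 8 in the first 6h library, 15 and 16 in the 12h pair, and no peak at 24h. The downstream start region (chr6:88198317-88198739) had 10 tags in the second 0h library, 14 in the second 12h library and 11 in the first 24h library. At 0h the starts were each called in a different library, and both were called together in the second 12h library. The region 4.2 kb before the upstream start was called in 6 libraries with 7 to 12 tags, at every time. The regions farthest after the gene, chr6:88242565-88242873 with 9 tags in the first 0h library and 7 in the first 12h library, and chr6:88254108-88254348 with 9 tags in the second 0h library and 9 in the second 6h library, lay nearest to Eefsec.

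Mecom (chr3:29951296-30509759) spans 558 kb, and its 9 regions, all inside the gene, came to 1.37 per 100 kb. Neither annotated start had a peak in any library. The region 177.2 kb into the gene (chr3:30332515-30332825) had 13 tags in the first 0h library, 10 and 13 in the 6h pair, 12 and 14 in the 12h pair, and 11 and 13 in the 24h pair. It was missed by the second 0h library alone and otherwise varied little. The gained region (chr3:30508140-30508812), 1.2 kb into the gene from the upstream start, had 8 tags in the second 6h library, 13 and 7 in the 12h pair, and 7 and 6 in the 24h pair, with no peak at 0h or in the first 6h library. It is the 1 region gained at both 12h and 24h, with 4 of its 5 pile-ups at 8 tags or under. The peaks of the 24h pair, at chr3:30508140-30508563 and chr3:30508598-30508812, did not overlap each other, and the 24h call ended under a stricter rule of overlap.

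The remaining Mecom regions were called in 3 libraries or fewer. The region at chr3:30092043-30092359 had 10 tags in the first 0h library and 9 in the first 6h library, and that at chr3:30149786-30150074 had 9 tags in the first 0h library only. Both lay deep in the gene, 417.7 and 359.9 kb from the upstream start. Prdm16 (chr4:154316122-154637360), the relative of Mecom that stem cells need and that is also a switch of brown fat, had 2 regions over a window of 421 kb. The region 302.0 kb into the gene (chr4:154334639-154335284), 18.8 kb from the far end, had 16 and 15 tags in the 0h pair, 13 and 17 in the 6h pair, 11 and 13 in the 12h pair, and 11 and 9 in the 24h pair. Both 24h pile-ups were below both 0h pile-ups, where the background of the lists was 2.3 and 2.37 tags per kb for 24h and 2.67 and 1.5 for 0h.

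The gained region of the Prdm16 locus (chr4:154301472-154301842) lay beyond the gene, 1.56 kb from an end of Arhgef16, a guanine nucleotide exchange factor gene. It had 7 tags in the first 6h library and 8 and 6 in the 12h pair, with no peak at 0h, in the second 6h library or at 24h. All 3 pile-ups were within 3 tags of the lowest of their lists.

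**Figure D4:**
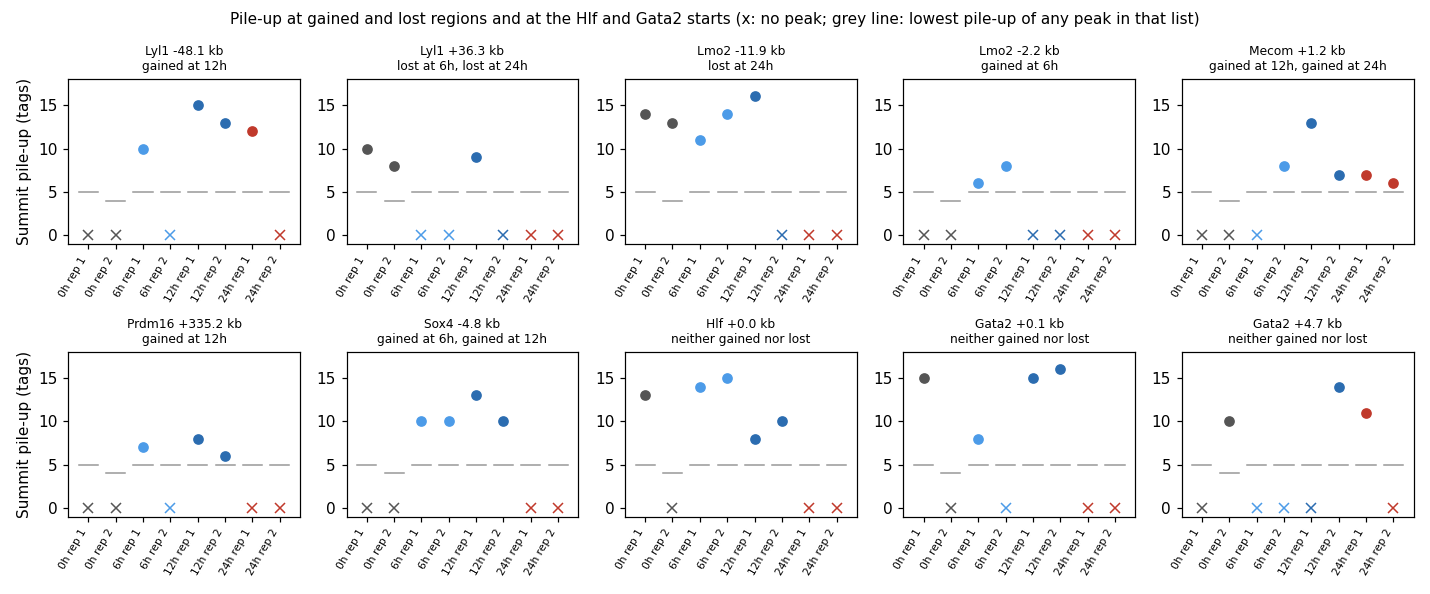
Summit pile-up in tags (y axis) in each of the 8 libraries (x axis, by time and replicate) at the 7 gained or lost regions and at the Hlf and Gata2 starts, with crosses at 0 where no peak was called and grey lines at the lowest pile-up of each list. Pile-ups run from 6 to 16 tags, and the Mecom, Prdm16 and Lmo2 gained regions lie nearest the grey lines.

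Hhex (chr19:37434841-37440731), a homeobox repressor of early blood progenitors, had its strongest region at its start. The start region (chr19:37434404-37435939) had 40 and 12 tags in the 0h pair, 18 and 34 in the 6h pair, 31 and 28 in the 12h pair, and 23 and 28 in the 24h pair. Its fold in the second 6h library, 11.7, was the highest of any peak in the 10 loci. The 0h pair spanned the values of every later library. The region 8.3 kb after the start (chr19:37442924-37443222) had 8 tags in the first 0h library, 9 in the second 6h library, 13 in the first 12h library and 7 in the second 24h library, so 1 replicate of each time called it. The region at chr19:37419781-37420228, inside Kif11, had 6 tags in the first 0h library and 9 in the first 24h library, and that at chr19:37482584-37483003 had 11 tags in the first 12h library and 8 in the first 24h library.

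Hlf (chr11:90336535-90390917), a leucine zipper factor whose expression marks stem cells, had peaks at 0h, 6h and 12h and none at 24h. The region over its start (chr11:90390744-90391157) had 13 tags in the first 0h library, 14 and 15 in the 6h pair, 8 and 10 in the 12h pair, and no peak in the second 0h library or in either 24h library. The 12h pile-ups were lower than those at 6h, and each was above the lowest of its list. The missing peak at 24h is not a loss by the rule, since the second 0h library had none there either. The region 27.2 kb before the start (chr11:90417836-90418237) had 8 tags in the first 0h library and 5 in the second 6h library, and the region at chr11:90363354-90363540, inside the gene, had 5 tags in the first 0h library. Over the whole window Hlf had 0 and 0 peaks in the 24h pair and 3 and 0 in the 0h pair, so the second 0h library matched the 24h pair.

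Sox4 (chr13:28948919-28953699), an HMG-box factor of lymphoid and myeloid progenitors that works with several leukaemia oncogenes, had 3 regions near its start. The start region (chr13:28953522-28954030) had 20 tags in the first 0h library, 12 and 12 in the 6h pair, 12 and 15 in the 12h pair, and 14 and 19 in the 24h pair, and was missed by the second 0h library. The gained region (chr13:28957941-28958595), 4.8 kb before the start, had 10 and 10 tags in the 6h pair, 13 and 10 in the 12h pair, and no peak at 0h or 24h. It was the 1 region gained at both 6h and 12h, called by both replicates of each, and no other protein-coding gene lay within the window. The region inside the gene (chr13:28952665-28952875) had 8 tags in the second 12h library only.

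Bmi1 (chr2:18677018-18686629), the Polycomb subunit, had 4 regions, and the ones called in most libraries lay at neighbours. The region 4.6 kb before its start (chr2:18672070-18672791), over the start of Commd3, had 23 and 10 tags in the 0h pair, 15 and 23 in the 6h pair, 27 and 18 in the 12h pair, and 21 and 13 in the 24h pair. The 24h pile-ups lay between those of 0h. The region at chr2:18693911-18694736, 0.273 kb from an end of Spag6, had 24 and 5 tags in the 0h pair, 13 in the first 6h library, 14 and 11 in the 12h pair, and 11 and 16 in the 24h pair. The region over the Bmi1 start (chr2:18676501-18676887) was called with 11 tags in the second 6h library and 11 in the first 24h library. Only the 6h peak reached the start window, since the 24h peak (chr2:18676501-18676696) ended before it. The region at chr2:18688932-18689333 was called with 6 tags in the first 24h library.

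**Figure D5:**
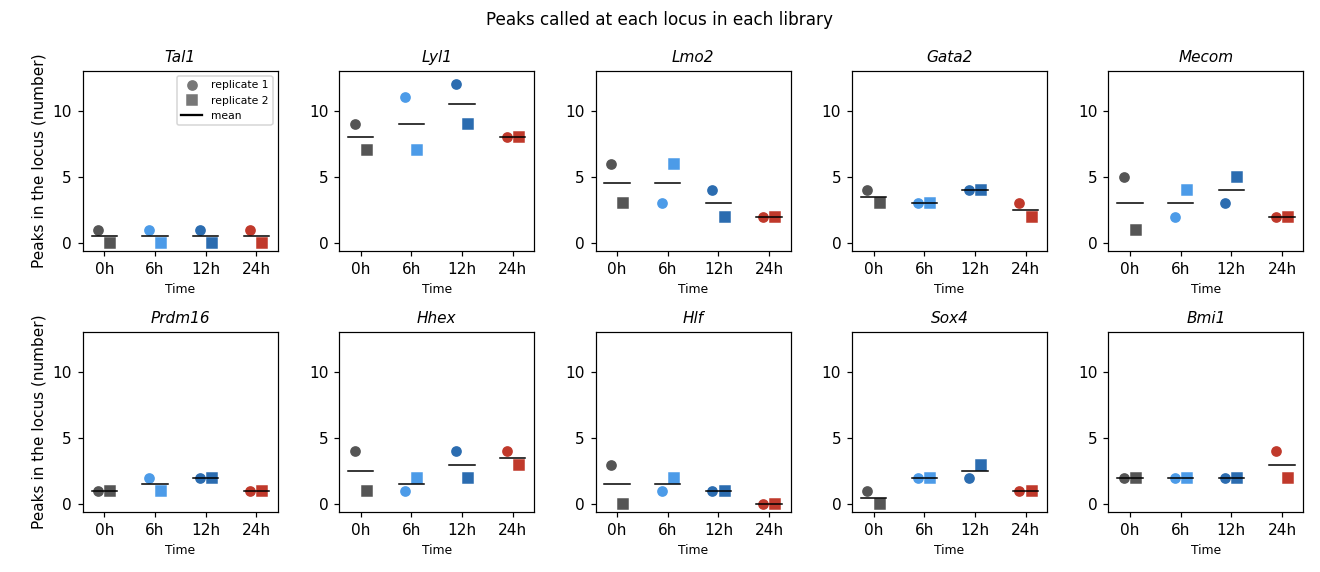
Number of peaks (y axis) at each of the 10 loci by time (x axis), with circles for replicate 1, squares for replicate 2 and a line for their mean. Lyl1 has 7 to 12 peaks in each library, Hlf has 0 in both 24h libraries and in the second 0h library, and Tal1 has 0 in each replicate 2.

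Both libraries of a later time had fewer peaks than either 0h library only at Lmo2 at 24h. Both had more only at Sox4 at 6h and 12h and at Prdm16 at 12h. Elsewhere the counts met or overlapped those of the 0h pair. Lyl1 had 8 and 8 peaks in the 24h pair and 9 and 7 in the 0h pair, Gata2 3 and 2 in the 24h pair and 4 and 3 in the 0h pair, and Bmi1 4 and 2 in the 24h pair and 2 and 2 in the 0h pair. Lmo2 had 2 and 2 peaks in the 24h pair and 6 and 3 in the 0h pair, and the 24h lists were shorter than either 0h list. Sox4 had 2 and 2 peaks in the 6h pair, 2 and 3 in the 12h pair, and 1 and 0 in the 0h pair. Prdm16 had 2 and 2 peaks in the 12h pair and 1 and 1 in the 0h pair. Mecom had 2 and 2 peaks in the 24h pair and 5 and 1 in the 0h pair, and Hhex 4 and 3 in the 24h pair and 4 and 1 in the 0h pair. The 50 kb limit leaves out a region 51.0 kb from Lmo2, called in 6 libraries with folds of 4.05 to 7.83, and just keeps the gained Lyl1 region at 48.1 kb, called in 4 libraries with folds of 5.98 to 7.16.

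Other genes of the programme were counted in the same way, as genes with a gained or lost region within 50 kb. Over all genes the shares at 6h, 12h and 24h were 6.11%, 12.8% and 4.07% gained and 6.61%, 4.15% and 11.7% lost, with a median of 3 regions per window. The windows of the lists below held more, with medians of 7, 7.5, 8 and 5 regions in the order given, and what part that has in the counts was not tested. Of 12 partners of the complex and the other factors that bind with it, Cbfa2t3 and Erg had a gained region at 6h, Cbfa2t3, Runx1 and Ssbp2 at 12h, and Erg at 24h, while Fli1 had a lost region at 6h and Cbfa2t3, Fli1 and Lmo4 at 24h. Those are 2, 3 and 1 genes gained and 1, 0 and 3 lost. The gained Erg region (chr16:95421666-95422079) had folds of 4.7 and 4.7 in the 6h pair, 8.55 in the first 12h library, and 5.09 and 4.36 in the 24h pair. The Fli1 region (chr9:32520271-32521193) had folds of 5.08 and 5.36 in the 0h pair and 4.88 in the first 12h library. All 12 had a region called in all 8 libraries, as did 6 of the 10 genes described here and 62.6% of all genes.

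Of 18 other stem and progenitor factors, 1, 5 and 3 had a gained region at 6h, 12h and 24h, and 2, 2 and 5 a lost one. Meis1, a homeobox cofactor of MLL-AF9 leukaemia, had a lost region at 12h and 24h (chr11:18883582-18884214), with folds of 8.22 and 6.76 in the 0h pair and 5.51 in the second 6h library and no other peak. The other genes with a lost region at 24h were Etv6, Gfi1, Hoxa9 and Zbtb16, and those with a gained region at 24h were Bcl11a, Foxo3 and Hoxa9. Of 10 Polycomb partners of Bmi1, 4, 4 and 3 had a gained region and 2, 2 and 2 a lost one. Cbx2 and Cbx8 share the same gained region (chr11:119022843-119023418), which had folds of 8.38 and 7.28 in the 6h pair, 7.84 and 9.29 in the 12h pair, and 8.41 and 11.6 in the 24h pair. Phc2 had a gained region (chr4:128727273-128727636) with folds of 9.47 and 7.62 in the 6h pair, 10.5 and 7.81 in the 12h pair, and 7.38 and 9.0 in the 24h pair. Phc2 also had a region (chr4:128617504-128617809) lost at 6h, 12h and 24h. Its only peaks were in the 0h pair, with folds of 5.25 and 8.69. Cbx2 also had a region (chr11:118975647-118976202) lost at 6h and 24h. That region had folds of 4.67 and 4.62 in the 0h pair and 4.04 in the second 12h library. Of 9 relatives of the 10 genes, Nfil3 had a lost region at 6h, Sox12 a gained one at 12h and Dbp, from the same family as Hlf, a lost one at 24h.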

How the data were processed

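The submitters' processing notes name BWA, SAMtools, MACS2 and mm10, with versions, settings and any read shifting not given in the sources used here. Each library has its own list of peaks, as the authors deposited it, and no list pools replicates. For each peak the authors deposited a fold enrichment (a ratio over local background), a −log10 p-value and a −log10 q-value, of which the lowest was 2. The deposited score was not used, and the deposited summit position placed peaks in loci. Chromosomes used were the 19 autosomes with X and Y, and peaks were merged at an overlap of at least 1 bp with Python 3.11.15, numpy 2.4.6, pandas 2.3.3 and scipy 1.17.1. Whole-number pile-ups were computed from fold and −log10 p, within a tolerance of 0.001 on −log10 p that widens in proportion above 10, and this worked in each library for 99.8% to 99.9% of peaks. Scripts were tested on simulated data. Gene spans of 21887 protein-coding genes and the start windows came from RefSeq tables on GRCm38.p6, with no exons used.

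The 10 genes, the other gene lists and the rules were chosen with earlier results of these data known. Coordinates and values in every library are given for 39 regions: those over a start, those gained or lost, and up to 3 others per locus with the highest mean percentile of fold within the lists that call them; a few further regions were added after their values were seen. Alternatives were lists of equal length, a stricter q-value (−log10 of at least 5), stricter overlap, windows of 10 and 100 kb, and each library left out. No test of the calls was made, and no intervals are given. One marker gene is not reported here by name.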

Additional observations from a re-analysis of the deposited data

How the results depend on the processing

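The calls depended on list length. With each list limited to its 14826 strongest peaks, 37 regions remained in the 10 loci, 0 were gained and 0 lost at 6h, 0 were gained at 12h, and 3 were gained and 0 lost at 24h. Of all regions 2.37% were then gained and 2.36% lost at 6h, 2.69% gained at 12h, and 2.92% gained and 3.01% lost at 24h. The 3 lay at Mecom (the region reported as gained), at Lyl1 near Ier2 and 4.2 kb before Gata2. With peaks of −log10 q of at least 5, 0 were gained at 6h and 2 at 12h. With a window of 10 kb there were 32 regions, 4 called in all 8 libraries, 0 lost at 6h, 2 gained at 12h and 0 lost at 24h, and with 100 kb there were 89 regions, 16 called in all 8 and 2 gained at 24h. Over the 8 alternatives that leave out 1 library, gained regions ran from 2 to 9 at 6h, 4 to 11 at 12h and 1 to 7 at 24h, lost regions from 1 to 9, 0 to 9 and 2 to 14, all regions from 54 to 59, and regions called in every library from 7 to 12. Leaving out a library loosens the rule, so gained and lost counts tend to rise there by construction. Over all alternatives 70 of these counts were within 1.5 times the reported value and 34 were not, and no other cause was tested. The Mecom call at 24h was the 1 call that held at equal list length, and it was lost under stricter overlap and at −log10 q of at least 5. The gained regions of Mecom, Prdm16, Sox4 and the Lmo2 region at 6h were also lost at −log10 q of at least 5, and the Sox4 call at 6h under stricter overlap. No paired analysis was possible because the results come from no test. The second 0h library had the lowest background and the lowest median pile-up, and a missing peak there is not evidence of a closed site. Total read numbers were not used, and the cause of its missing peaks was not tested.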
